A study of Rattus norvegicus with 12 samples.

Results

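The antioxidant and redox defence genes described here are Sod1, Sod2, Sod3, Cat, Gpx1, Gpx3, Hmox1, Nqo1 and Txnip, followed in cartilage of the rat knee after joint surgery. Of 10 genes listed, 9 had a probe set whose only gene symbol in the array annotation was theirs, among 14218 such genes on the array. Each had 1 such probe set, and all 9 passed the filter on low values (log2 above 4 in at least 3 of 12 arrays), which kept 15934 of 31099 probe sets. The only probe set for the peroxiredoxin gene Prdx1 carried 2 symbols, so Prdx1 was not analysed here.

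The 12 Affymetrix arrays held total RNA of cartilage taken 2 or 8 weeks after an operation to bring on osteoarthritis (OA) or a sham operation, in 4 groups of 3 arrays. The sham groups were also operated, and no group without surgery was analysed here. The strain, age and sex of the rats, the surgical steps and any pooling of joints were not given in the sources used here. Whether the arrays of a group stem from different animals is not in the labels, so p-values reflect the spread between these samples alone, which may be technical. Values are the deposited log2 values, on which 1 unit is a 2-fold difference. Errors beside log2 differences are standard errors of the limma model, with 3 arrays per group, and calls use a Benjamini-Hochberg adjusted p under 0.05.

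Cartilage is a tissue without vessels whose chondrocytes live at low oxygen and still form superoxide and hydrogen peroxide. Superoxide dismutases turn superoxide into hydrogen peroxide, which catalase, glutathione peroxidases and peroxiredoxins then remove. Nqo1 and Hmox1 belong to the enzymes induced through the transcription factor NRF2, which binds antioxidant response elements in DNA, while Txnip binds and inhibits thioredoxin.

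In the deposited values, 48.2% to 49% of probe sets lay above log2 4 at 2 weeks and 49.3% to 49.8% at 8 weeks. Mean within-group correlations were 0.9827 to 0.9879 at 2 weeks and 0.9731 to 0.9826 at 8 weeks. Such values, taken after processing, do not measure the quality of the arrays or the RNA. Of 10 chondrocyte markers 8 passed the filter, and their mean log2 value was 13.90 to 14.47 over the 12 arrays. Marker means of other cell types were as follows. The mean of 15 skeletal muscle markers was 4.81 to 7.39 in OA and 5.18 to 6.10 in sham at 2 weeks, but 9.54 to 14.49 in OA and 5.39 to 10.35 in sham at 8 weeks. The mean of 16 macrophage markers was 8.75 to 9.78 in OA and 8.34 to 10.22 in sham at 2 weeks, and 6.47 to 6.68 in OA and 7.52 to 10.22 in sham at 8 weeks. In such bulk samples, fewer cells of a type and less RNA per cell cannot be told apart. At 8 weeks the osteoclast marker mean was 9.48 to 10.82 in OA and 12.53 to 12.87 in sham, and the osteoblast and osteocyte marker mean 10.03 to 10.74 and 11.53 to 11.96. The endothelial marker mean was 4.39 to 5.31 in OA and 5.31 to 6.89 in sham at 8 weeks, and the erythroid mean 6.42 to 7.16 and 7.47 to 8.44. The adipocyte means overlapped, at 4.41 to 5.92 and 5.51 to 6.20.

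The upstream sequences of Nqo1 and Sod2 are shown because Nqo1 was the gene closest to a difference between OA and sham, and Sod2 the only one of the 6 genes with a RefSeq promoter that held an antioxidant response element core. They are the 250 bases before the gene start in RefSeq's GRCr8, 5′ to 3′ on the minus strand, at chr19:52220268-52220517 for Nqo1 and chr1:50050169-50050418 for Sod2. Capitals mark matches to the antioxidant response element core (TGACNNNGC) or the GC box (GGGCGG), searched on both strands.

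Nqo1: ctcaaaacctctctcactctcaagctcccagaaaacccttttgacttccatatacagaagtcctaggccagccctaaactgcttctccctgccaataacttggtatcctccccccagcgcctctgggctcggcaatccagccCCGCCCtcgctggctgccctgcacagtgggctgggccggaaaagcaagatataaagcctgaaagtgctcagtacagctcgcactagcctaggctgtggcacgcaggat

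Sod2: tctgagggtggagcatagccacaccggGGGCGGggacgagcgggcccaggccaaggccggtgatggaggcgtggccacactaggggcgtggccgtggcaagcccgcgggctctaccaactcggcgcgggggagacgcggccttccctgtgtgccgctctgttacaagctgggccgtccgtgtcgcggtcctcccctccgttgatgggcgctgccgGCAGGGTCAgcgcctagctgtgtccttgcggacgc

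RefSeq promoters matched 6 of the 9 genes, namely Sod1, Sod2, Cat, Gpx1, Gpx3 and Nqo1. The element core was found in 1 of these 6, in Sod2 on the strand opposite to the gene, at bases 35 to 27 before the start, and in 10.1% of 33469 rat promoters of the same length. The GC box was found in 5 of the 6, all but Cat, and in 30.5% of all promoters. The 6 sequences held 55.2% to 71.6% G or C bases, against a median of 51.2% over all promoters. They were not compared with promoters of like G and C content. A match to a motif describes letters only, and its absence says only that the letters are not in these 250 bases.

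The comparison of OA with sham asked which genes differ between the diseased and the operated control joint at each time. In the 9 antioxidant genes the differences were at most 0.21 in size for 7, wide in error for Hmox1, and towards higher values in OA for Nqo1. At 2 weeks limma called 0 of the 9 genes, with 0 at an unadjusted p under 0.05. Over all probe sets it called 0% at 2 weeks, and 1.69% had an unadjusted p under 0.05. At 8 weeks it again called 0 of the 9, with 1, Nqo1, at an unadjusted p under 0.05, while 3.46% of all probe sets were called and 21.5% had an unadjusted p under 0.05. The median size of the 9 differences at 8 weeks, whatever their sign, was 0.07, against 0.19 over all probe sets. At 2 weeks the medians were 0.06 and 0.09. The OA and sham arrays did not overlap for 0 of the 9 genes at 2 weeks (5.38% of all probe sets) and for 1, Nqo1, at 8 weeks (25.1% of all). On average over both times 0 of the 9 were called (0.364% of all probe sets) and 1 had an unadjusted p under 0.05 (12.4% of all). For the difference between the times, 0 were called (0.138% of all) and 0 had an unadjusted p under 0.05 (11% of all). The 95% confidence interval stayed within a difference of 1 on the log2 scale for 8 of the 9 genes at 2 weeks and for 7 of the 9 at 8 weeks. It stayed within 0.5 for 3 and 4 of them, so small differences in the others were not detectable with this number of arrays.

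**Figure D1:**
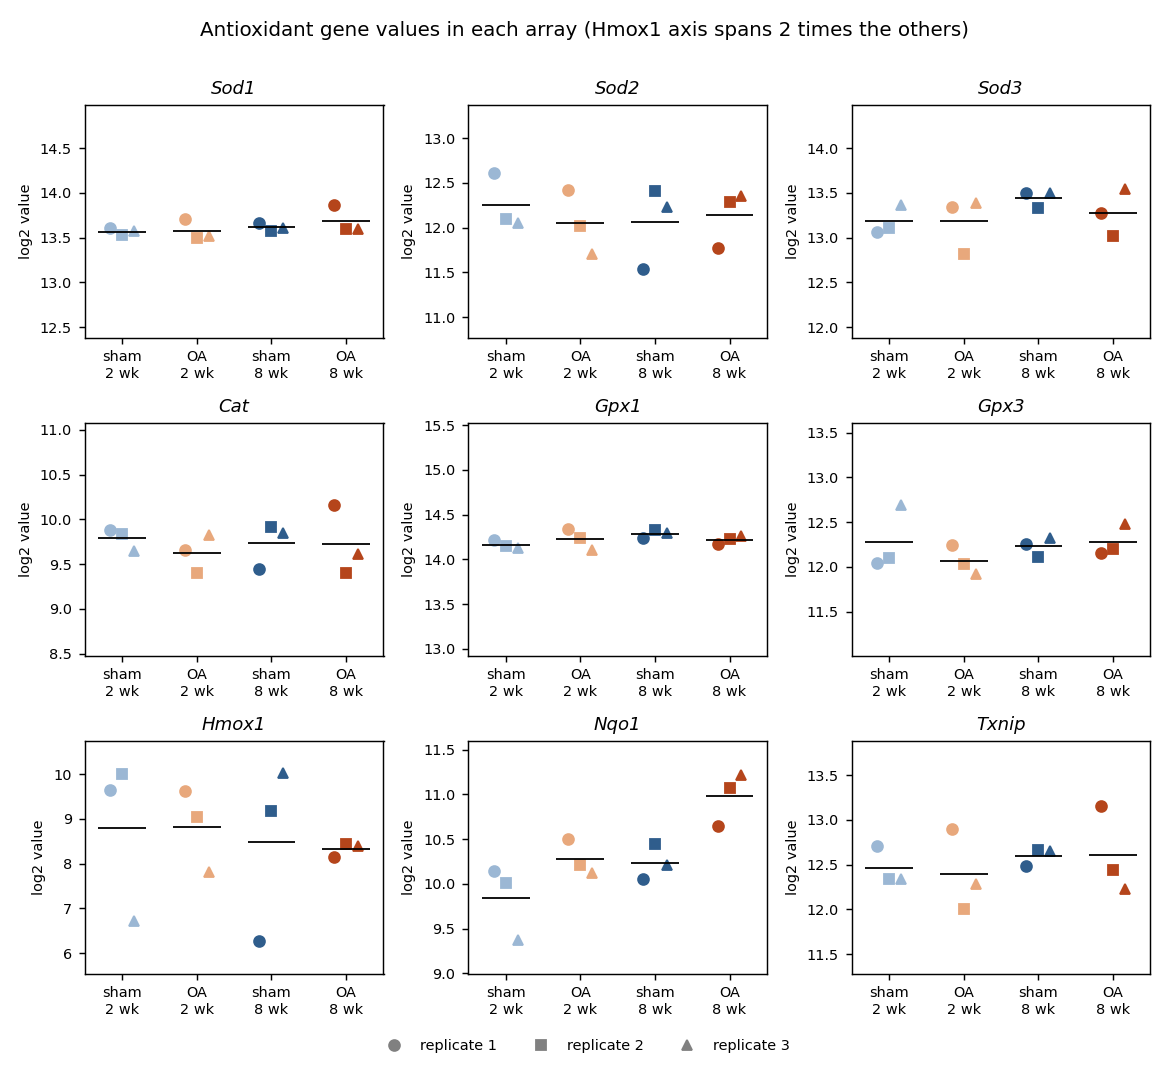
Log2 value of each antioxidant gene (vertical axis) in the 12 arrays by group (horizontal axis), where a shape is a replicate number and a line the mean of 3 arrays. The Sod1 and Gpx1 points lie close together, Hmox1 spans 3.75 log2 units on an axis 2 times as long, and the 3 OA points of Nqo1 at 8 weeks lie above its other 9.

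Sod1, the superoxide dismutase of the cytosol, read among the brightest probe sets and hardly varied. It read 13.71, 13.49 and 13.52 in OA and 13.60, 13.52 and 13.57 in sham at 2 weeks. The 8-week arrays read 13.87, 13.60 and 13.59 for OA and 13.67, 13.58 and 13.61 for sham. The groups overlapped at both times, with OA replicate 1 the highest array of each time. The OA minus sham difference was 0.01 ± 0.10 at 2 weeks (95% interval -0.21 to 0.22) and 0.07 ± 0.10 at 8 weeks (-0.15 to 0.28; adjusted p = 0.745).

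Sod2, the mitochondrial superoxide dismutase and a gene that inflammatory signals induce, spread more between arrays of a group. It read 12.41, 12.02 and 11.70 in OA and 12.60, 12.09 and 12.05 in sham at 2 weeks, and 11.77, 12.29 and 12.35 in OA and 11.54, 12.41 and 12.23 in sham at 8 weeks. The groups overlapped, and replicate 1 was the highest array of its group at 2 weeks and the lowest at 8 weeks in OA and in sham alike. The difference was -0.20 ± 0.28 at 2 weeks and 0.08 ± 0.28 at 8 weeks (-0.53 to 0.69; adjusted p = 0.909).

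Sod3, which encodes the dismutase secreted into the matrix, gave overlapping groups too. It read 13.34, 12.82 and 13.39 in OA and 13.07, 13.11 and 13.36 in sham at 2 weeks, against 13.28, 13.01 and 13.55 in OA and 13.50, 13.33 and 13.49 in sham at 8 weeks. OA replicate 2 was the lowest array at each time. The difference was 0.00 ± 0.18 at 2 weeks and -0.16 ± 0.18 at 8 weeks (-0.55 to 0.23; adjusted p = 0.655).

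Among the enzymes that remove hydrogen peroxide, catalase (Cat), found mainly in peroxisomes, read 9.66, 9.40 and 9.82 in OA and 9.89, 9.84 and 9.64 in sham at 2 weeks. At 8 weeks Cat read 10.16, 9.40 and 9.62 in OA and 9.44, 9.91 and 9.85 in sham, so the 8-week OA group held both the highest and the lowest array of that time. The difference was -0.16 ± 0.20 at 2 weeks and -0.01 ± 0.20 at 8 weeks (-0.46 to 0.44; adjusted p = 0.98).

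Gpx1, the glutathione peroxidase of the cytosol and mitochondria, was the steadiest of the 9 genes, with a within-group SD of 0.07 and all 12 arrays between 14.11 and 14.34. It read 14.34, 14.24 and 14.11 in OA and 14.21, 14.15 and 14.12 in sham at 2 weeks, and 14.17, 14.23 and 14.26 in OA and 14.24, 14.33 and 14.29 in sham at 8 weeks. These groups overlapped at each time. The difference was 0.06 ± 0.08 at 2 weeks and -0.07 ± 0.08 at 8 weeks (-0.25 to 0.11; adjusted p = 0.685). By mean level Gpx1 stood at percentile 97.8 and Sod1 at 95.5 of the kept probe sets, a range in which array values can compress a difference.

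Gpx3, the glutathione peroxidase secreted into plasma and matrix, read 12.24, 12.03 and 11.92 in OA and 12.04, 12.10 and 12.69 in sham at 2 weeks. Sham replicate 3 stood above the other 5 arrays of that time. At 8 weeks it read 12.15, 12.20 and 12.47 in OA and 12.26, 12.11 and 12.32 in sham. The groups overlapped, with differences of -0.21 ± 0.18 at 2 weeks and 0.04 ± 0.18 at 8 weeks (-0.34 to 0.43; adjusted p = 0.924).

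Txnip, the inhibitor of thioredoxin and a gene that glucose induces, read 12.90, 12.01 and 12.29 in OA and 12.71, 12.33 and 12.34 in sham at 2 weeks. At 8 weeks Txnip read 13.15, 12.44 and 12.23 in OA and 12.49, 12.66 and 12.65 in sham. OA replicate 1 was the highest array at each time, while the other 2 OA arrays lay below all 3 sham arrays of that time. The difference was -0.06 ± 0.27 at 2 weeks and 0.00 ± 0.27 at 8 weeks (-0.59 to 0.60; adjusted p = 0.994).

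**Figure D2:**
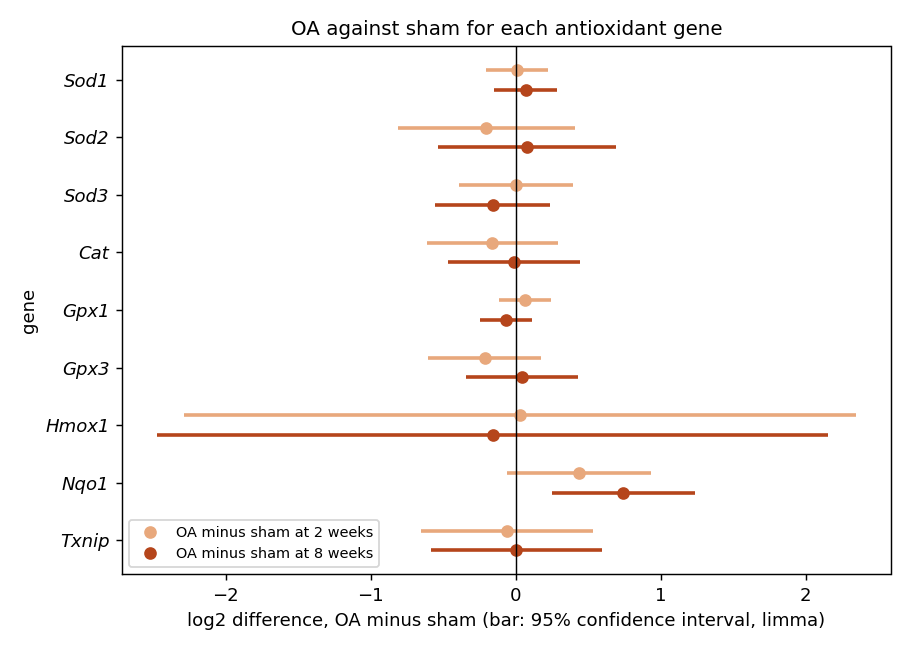
OA minus sham difference on the log2 scale (horizontal axis) of each gene (vertical axis) at 2 and at 8 weeks, with the 95% confidence interval of the limma model as a bar. The bar of Nqo1 at 8 weeks, from 0.25 to 1.24, is the only one of the 18 that leaves out 0, and those of Hmox1 reach past 2 in both directions.

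Nqo1, a quinone reductase and a standard readout of NRF2 activity, was higher in OA at both times without passing the test. It read 10.51, 10.21 and 10.12 in OA and 10.14, 10.01 and 9.37 in sham at 2 weeks, where the highest sham array lay just above the lowest OA array. At 8 weeks it read 10.64, 11.07 and 11.22 in OA and 10.06, 10.44 and 10.21 in sham, without overlap. The 3 OA arrays lay above the 3 sham arrays in 12.3% of all probe sets at 8 weeks. The difference was 0.44 ± 0.22 at 2 weeks (1.35-fold, adjusted p = 1; 0.20 without sham replicate 3) and 0.74 ± 0.22 at 8 weeks (1.67-fold, 95% interval 1.19 to 2.36, unadjusted p = 0.00754, adjusted p = 0.0999 in the limma fit). Averaged over both times it was 0.59 ± 0.16 (adjusted p = 0.158). The OA minus sham difference at 8 weeks less that at 2 weeks was 0.30 ± 0.31 (adjusted p = 0.749), an estimate no larger than its error. By group mean, sham at 2 weeks (9.84) was lowest, then sham at 8 weeks (10.24), OA at 2 weeks (10.28) and OA at 8 weeks (10.98). Sham at 8 weeks and OA at 2 weeks lay closer than the SD of either (0.19 and 0.20).

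OA and sham arrays of the same time shared replicate numbers. Within a time, deviations of same-numbered arrays from their group means correlated by 0.119 to 0.527. The labels do not say that the numbers pair arrays, so a block on them is an assumption. The Nqo1 value was higher in OA in all 6 same-numbered pairs, by 0.37, 0.20 and 0.75 at 2 weeks and by 0.58, 0.63 and 1.01 at 8 weeks. No other of the 9 genes was higher in OA in all 6, and 2.49% of all probe sets were. For Nqo1 the 8-week pairs add nothing to the lack of overlap, as any numbering gives higher values in OA. At 2 weeks only OA replicate 3 beside sham replicate 1 would have gone the other way. With the replicate number within each time as a block, the 8-week difference of 0.74 had a standard error of 0.14 and an adjusted p of 0.0386, which passed. In that fit limma called 6.51% of all probe sets at 8 weeks and no other of the 9 genes. The average over both times had an adjusted p of 0.0663 with the block, where 0.69% of all probe sets were called. Array weights also brought the 8-week difference past the threshold (0.82, adjusted p = 0.0322). These weights raised the calls over all probe sets at 8 weeks too, from 552 in the main fit to 1567. The mean of the muscle markers as a covariate gave 1.003 (adjusted p = 0.223), and that of macrophage markers gave 1.29 (adjusted p = 0.0645). Between OA and sham at 8 weeks limma called 0 of the 15 muscle markers (3.46% of all probe sets). Of these markers 8 had an unadjusted p under 0.05 (21.5% of all probe sets).

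**Figure D3:**
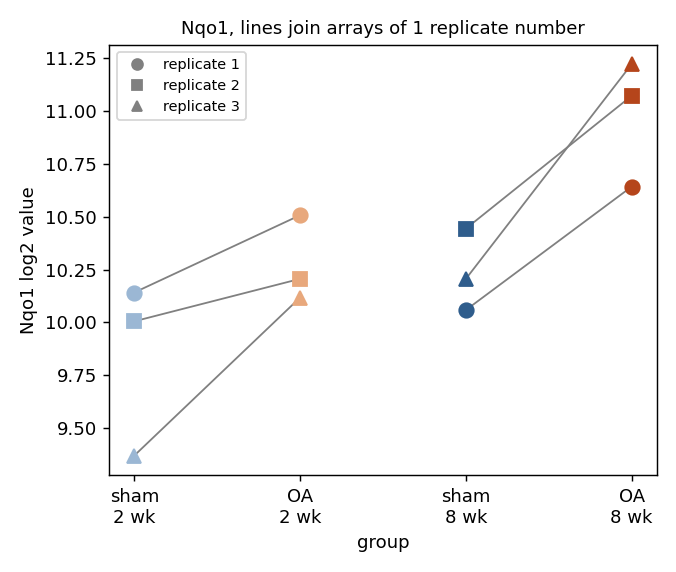
Log2 value of Nqo1 (vertical axis) by group (horizontal axis), where lines join OA and sham arrays of 1 replicate number at the same time. All 6 lines go up from sham to OA, by 0.20 to 1.01.

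Of the 9185 other named genes, the 2 whose values over the 12 arrays lay nearest to those of Nqo1, each gene centred on its own mean, were Gpc4 and Gda. Gpc4, a cell-surface heparan sulfate proteoglycan, differed from the Nqo1 pattern by a root mean square of 0.18 on the log2 scale, and Gda, a guanine deaminase, by 0.19, against an SD of 0.47 of Nqo1 about its mean. Mean values of Gpc4 were 11.95 in sham and 12.20 in OA at 2 weeks, and 12.18 and 12.78 at 8 weeks.

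Hmox1, which encodes the inducible haem oxygenase, varied most between arrays of a group. It read 9.62, 9.05 and 7.80 in OA and 9.66, 9.998 and 6.73 in sham at 2 weeks. At 8 weeks it read 8.14, 8.44 and 8.397 in OA and 6.26, 9.18 and 10.02 in sham. The 8-week OA arrays lay close together (SD 0.16) inside the wide range of the 8-week sham arrays (SD 1.97), and the groups overlapped at both times. Its within-group SD of 1.41 stood at percentile 98.9 of all probe sets, whose median was 0.21, and its lowest and highest arrays were 13.5-fold apart. The difference between OA and sham was 0.03 ± 1.04 at 2 weeks and -0.16 ± 1.04 at 8 weeks (-2.47 to 2.15; adjusted p = 0.954), intervals too wide to show a difference of up to 2 log2 units. The model used 1 SD for all 4 groups, which these unequal SDs do not meet.

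The spread of Hmox1, a gene that macrophages express strongly when they break down haem, ran parallel to the macrophage marker mean. That mean was 9.78, 9.35 and 8.75 in OA and 10.03, 10.22 and 8.34 in sham at 2 weeks, and 6.47, 6.68 and 6.56 in OA and 7.52, 9.81 and 10.22 in sham at 8 weeks. Within each of the 4 groups the arrays had the same order by both measures. The slope of Hmox1, in log2 units per unit of the marker mean over 3 arrays, was 1.78 in OA and 1.74 in sham at 2 weeks and 1.38 in OA and 1.35 in sham at 8 weeks. With the marker mean as a covariate, the slope was 1.503 ± 0.078 and the within-group SD of Hmox1 went from 1.41 to 0.22. This was the largest fall in proportion among all 15934 probe sets in that fit.

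**Figure D4:**
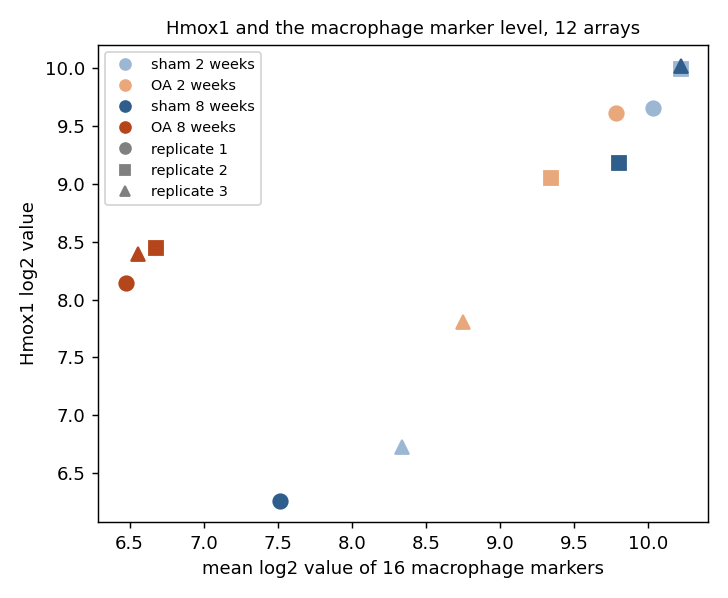
Log2 value of Hmox1 (vertical axis) against the mean log2 value of 16 macrophage markers (horizontal axis) in the 12 arrays, coloured by group, with replicate numbers as shapes. The 9 arrays of the other groups lie along 1 line from 6.26 to 10.02 for Hmox1, and the 3 OA arrays at 8 weeks, between 8.14 and 8.44, lie above it.

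The OA arrays at 8 weeks had the lowest macrophage marker means of the 12, yet their Hmox1 values lay in the middle of the range. Of the 16 macrophage markers, 5 (31.2%) fell at 8 weeks in OA and 0 rose, against 3.48% of all genes called. Differences were negative for 16 of 16, with a mean of the lysosomal marker Cd68 of 2.54 in OA, below the filter level. With the macrophage marker mean as a covariate, limma called Hmox1 higher in OA at 8 weeks by 3.77 ± 0.27 (adjusted p = 0.00195), among 186 probe sets called in that fit. It was higher by 0.39 ± 0.17 at 2 weeks (adjusted p = 1). Without the covariate the 8-week difference was -0.16, so the covariate decides both its direction and its call. The marker means of OA at 8 weeks lay outside the range of the sham arrays, so the adjusted value extends the fitted line beyond the values it was fitted to at that time. The covariate itself differed between OA and sham, and the call is not a direct comparison of the groups. Leaving out 1 array at a time, the adjusted difference was 3.50 to 4.76, the highest without sham replicate 1 at 8 weeks, with adjusted p between 0.00103 and 0.00928. Among the other genes the slope on the macrophage mean was 0.29 ± 0.09 for Sod2 and 0.21 ± 0.08 for Nqo1, and it was at most 0.11 for the remaining 6, of which 3 had a negative slope.

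Time after surgery was compared within sham and within OA, each over 3 arrays per time. Between 2 and 8 weeks the age of the rats and any batch of arrays cannot be told apart from time. Marker levels of other cell types changed too. In OA 10 of 15 muscle markers were called higher, and 11 of 16 macrophage and 5 of 5 osteoclast markers lower (29.3% of all genes called). In sham 1 of 15 muscle markers was called higher, and 1 of 16 macrophage and 0 of 5 osteoclast markers lower (14.8% of all genes). The part of such changes in the time differences was not tested. In sham, limma called 0 of the 9 genes, with 0 at an unadjusted p under 0.05, against 18.7% and 26.9% of all probe sets. Gpx1 was the only one of the 9 whose 8-week sham arrays did not overlap the 2-week ones, all higher, by 0.12 ± 0.08 (adjusted p = 0.405), as in 23.9% of all probe sets. In OA, 1 of the 9 genes (11.1%) was called, against 34.1% of all probe sets. This was Nqo1, which rose by 0.70 ± 0.22 (1.63-fold, adjusted p = 0.0336), and its 8-week OA arrays all lay above the 2-week ones, as in 29.2% of all probe sets. The Nqo1 call ended with added quantile normalization (0.61, adjusted p = 0.0751) or equal array medians (0.60, adjusted p = 0.0803). It also ended without OA replicate 2 at 2 weeks (adjusted p = 0.0904), OA replicate 3 at 2 weeks (0.0981), OA replicate 2 at 8 weeks (0.0906) or OA replicate 3 at 8 weeks (0.108). In sham Nqo1 differed by 0.40 ± 0.22 between the times (adjusted p = 0.312). The comparisons within OA and within sham differed by the same 0.30 ± 0.31 given above, which did not pass.

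Beyond the 9 genes, 130 related genes in 7 lists were examined, of which 100 passed the filter. They cover the rest of the thioredoxin, glutathione, NRF2, haem and iron, metal and selenium, oxidant producing and stress regulator systems. At 2 weeks limma called 0 of the 100 in OA against sham, and 0 had an unadjusted p under 0.05 (1.69% of all probe sets). At 8 weeks 1 rose and 4 fell in OA, and 23 of the 100 had an unadjusted p under 0.05, near the 21.5% of all probe sets. The gene that rose, Ppargc1a, passed the filter only through the 8-week OA arrays. The called share, which counts Ppargc1a, was 5%, against 3.48% of all 9247 genes, and is not read as a result about these lists. The median difference was -0.04, against -0.03 for all genes. Averaged over both times 1 of the 100 fell and 0 rose, against 0.443% of all genes called.

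**Figure D5:**
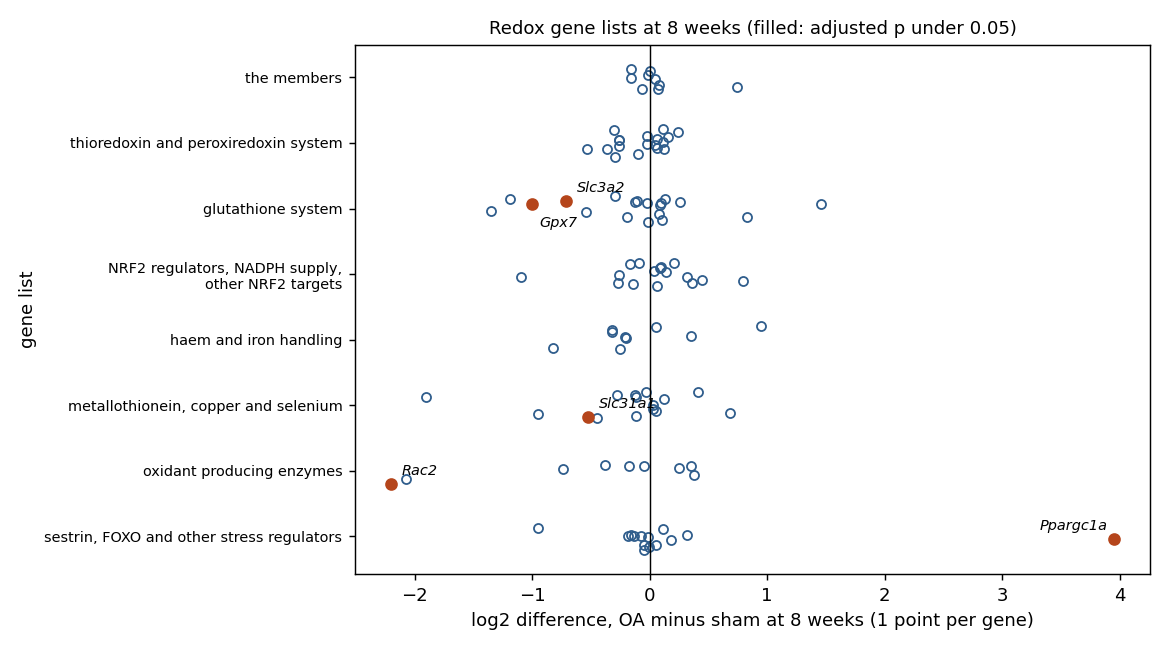
OA minus sham difference at 8 weeks on the log2 scale (horizontal axis) for the 9 antioxidant genes (top row, the members) and the related genes of 7 lists (vertical axis), 1 point per gene, filled where the adjusted p is under 0.05. The 5 filled points are Gpx7, Slc3a2, Slc31a1 and Rac2 on the negative side and Ppargc1a at 3.96, and most open points lie near 0.

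In the glutathione list, 2 of 19 genes fell at 8 weeks and 0 rose. Gpx7, a peroxidase of the endoplasmic reticulum that helps proteins form disulfide bonds, read 11.23, 11.21 and 11.42 in OA and 12.12, 12.39 and 12.35 in sham. It fell by 1.002 ± 0.122 on the log2 scale to 0.499 of the sham level (adjusted p = 0.00482) and averaged over both times by 0.59 ± 0.09 (adjusted p = 0.0296). The call of the average ended with the muscle covariate (-0.51, adjusted p = 0.21), with the macrophage covariate (-0.52, adjusted p = 0.109) and without any 1 of 7 arrays. These were OA replicate 1 and each sham replicate at 2 weeks, and OA replicate 2, sham replicate 2 and sham replicate 3 at 8 weeks, with adjusted p of 0.051 to 0.0927. At 2 weeks its OA arrays read 12.23, 11.90 and 12.27 and overlapped the sham arrays at 12.38, 12.22 and 12.33. Slc3a2, the shared heavy chain of several amino acid transporters including the cystine importer, read 11.93, 11.96 and 12.24 in OA and 12.58, 12.75 and 12.93 in sham at 8 weeks. It fell by 0.71 ± 0.16 (adjusted p = 0.0426).

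In the metallothionein, copper and selenium list, 1 of 15 genes fell. Slc31a1, the copper importer of the plasma membrane, read 12.04, 12.33 and 12.25 in OA and 12.78, 12.63 and 12.79 in sham, and fell by 0.53 ± 0.10 (adjusted p = 0.0247). Its 3 other kept probe sets differed by -0.44, -0.45 and -1.04 and did not pass (adjusted p = 0.0533, 0.311 and 0.26).

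Among the oxidant producing enzymes, 1 of 9 genes fell. Rac2, the blood-cell GTPase of the NADPH oxidase, read 6.84, 7.49 and 6.87 in OA and 8.82, 8.97 and 10.02 in sham at 8 weeks. It fell by 2.201 ± 0.350 (4.6-fold lower, adjusted p = 0.0126), beside macrophage and osteoclast marker means that were lower in OA in the same arrays. Rac2 followed the order of the macrophage mean within both 8-week groups. At 2 weeks the highest Rac2 array of each group (10.46 in OA, 10.27 in sham) had the lowest macrophage mean (8.75 and 8.34). The osteoclast mean gave the order of Rac2 in every group but OA at 8 weeks. The cells that held the Rac2 RNA were not tested. The catalytic oxidase subunit gene Cybb, singled out after its values were seen, differed by -2.08 ± 1.18 (adjusted p = 0.344).

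In the list of sestrin, FOXO and other stress regulators, 1 of 14 genes rose. Ppargc1a, a coactivator of mitochondrial genes, read 9.57, 6.94 and 6.93 in OA and 4.69, 3.40 and 3.48 in sham at 8 weeks, and was between 3.76 and 4.15 in the 2-week arrays. The 8-week difference was 3.96 ± 0.62 (adjusted p = 0.0126). The sham mean lay below the filter level, so the size of this difference is not exact. Outside the 8-week OA arrays, only OA replicate 3 at 2 weeks (4.15) and sham replicate 1 at 8 weeks (4.69) exceeded log2 4. Ppargc1a thus passed the filter only through the group where it was high. A second probe set differed by 0.43 (adjusted p = 0.226). From 2 to 8 weeks that second one rose by 3.43 in sham and 3.74 in OA. The first changed by 0.04 in sham and 3.81 in OA, so the 2 probe sets disagree about sham at 8 weeks. OA replicate 1, the highest array, also had the highest muscle marker mean (14.49), and the part of muscle RNA in this call was tested only by the covariate.

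With the muscle marker mean as a covariate, none of the 5 calls at 8 weeks held in limma, though most differences stayed near their size. Gpx7 differed by -0.85 (adjusted p = 0.079), Slc3a2 by -0.58 (0.349), Slc31a1 by -0.48 (0.23) and Rac2 by -1.94 (0.158), while Ppargc1a went from 3.96 to 2.51 (0.108). With the macrophage marker mean as a covariate none held either, with -0.88 for Gpx7 (0.0646), -0.55 for Slc31a1 (0.144), -2.04 for Rac2 (0.126) and 3.01 for Ppargc1a (0.164). Slc3a2 moved most there, from -0.71 to -0.28 (0.56). When only the 6 arrays of 8 weeks entered the fit, the differences were those of the full fit and the adjusted p-values were 0.0639 for Gpx7, 0.111 for Slc3a2, 0.128 for Slc31a1, 0.0928 for Rac2 and 0.124 for Ppargc1a. The Slc3a2 call also ended without a filter (0.0734) and with the replicate number as 1 block over both times (0.0654), and the Slc31a1 call with the mean of its kept probe sets (-0.61, adjusted p = 0.0824). Leaving out single arrays ended the call of Slc3a2 for 8 of the 12 arrays, that of Slc31a1 for 3 (OA replicate 1, sham replicate 2 and sham replicate 3 at 8 weeks) and that of Ppargc1a for 2 (sham replicates 2 and 3 at 8 weeks). It ended the 8-week call of Gpx7 and of Rac2 for none of the 12. The Slc3a2 call ended without any 8-week array but OA replicate 3 and sham replicate 1, and without any OA array or sham replicate 2 of 2 weeks.

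In the remaining 3 lists, the tests of OA against sham called 0 genes at 8 weeks. These were the thioredoxin and peroxiredoxin list (18 genes, 4 at an unadjusted p under 0.05), the list of NRF2 regulators, NADPH supply and other NRF2 targets (16 genes, 2 at an unadjusted p under 0.05) and the haem and iron list (9 genes, 2 at an unadjusted p under 0.05), beside 21.5% of all probe sets at an unadjusted p under 0.05. Beside Nqo1, 3 known NRF2 targets and the gene of NRF2 itself, Nfe2l2, were singled out after their values were seen. At 8 weeks the sulfiredoxin gene Srxn1 differed by 0.15 ± 0.11, the glutamate-cysteine ligase modifier gene Gclm by -0.01 ± 0.21 and the thioredoxin reductase gene Txnrd1 by 0.11 ± 0.17. Nfe2l2 differed by 0.20 ± 0.18 (adjusted p = 0.559). None of these 4 passed in limma. They do not stand for their whole lists. Differences at 8 weeks ran from -1.10 to 0.79 in the NRF2 list, with 10 of 16 positive. In the glutathione list they ran from -1.35 to 1.46, with 8 of 19 positive.

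Between 2 and 8 weeks, 10 of the 100 related genes rose and 3 fell in sham, a called share of 13% against 14.8% of all genes. In OA 17 rose and 13 fell, 30% against 29.3% of all genes. A total of 11 genes were called within both, all with the same sign, 8 higher and 3 lower at 8 weeks, and some of them are named here after their values were seen. Gclc, the catalytic subunit of the first enzyme of glutathione synthesis, had means of 7.10 in sham and 7.17 in OA at 2 weeks and of 5.90 and 5.79 at 8 weeks. It fell by 1.20 ± 0.15 in sham (adjusted p = 0.000166) and by 1.38 ± 0.15 in OA (adjusted p = 5.04e-05). Gss, the second enzyme of that synthesis, went the other way and rose by 0.75 ± 0.15 in sham (adjusted p = 0.00535) and by 1.06 ± 0.15 in OA (adjusted p = 0.000415). The mitochondrial deacetylase gene Sirt3 rose by 0.79 in sham and 0.73 in OA, and the peroxiredoxin gene Prdx6 by 0.64 and 0.62. These calls of Gclc, Gss and Sirt3 held in all 23 other settings tried, whereas the sham call of Prdx6 was lost in some, with adjusted p up to 0.0665. Among the 15108 probe sets left out for low values, a fit without the filter called 24.5% between the times in sham and 26.1% in OA, but 0.0331% between OA and sham at 8 weeks. Signals near the floor of the arrays therefore moved with time too, and their part in the time differences was not tested.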

How the data were processed

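The deposited table holds log2 values for 31099 probe sets on 12 arrays, which the authors summarized with GCRMA per the submitters' processing notes (version not given in the sources used here). They were used without further normalization. Gene symbols came from the array annotation, and an update through the current rat gene table changed 0 of them. Control probe sets (57) were left out, and probe sets above log2 4 in at least 3 of 12 arrays were kept, whatever the group. Each gene was represented by the kept probe set with 1 symbol and the highest mean.

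All 15934 kept probe sets were modelled by 4 group means with limma 3.58.1 in R 4.3.3 (lmFit and eBayes), and p-values were adjusted over all of them by the Benjamini-Hochberg method. There were 6 comparisons, with 8 residual and 1.94 prior degrees of freedom. The fit was tested on simulated data. Further software was matplotlib 3.10.9, numpy 2.4.6, pandas 2.3.3 and Python 3.11.15. The number of arrays limits the precision.

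The pairing was checked by the correlation of deviations from the group means. Same-numbered OA and sham arrays gave 0.333, 0.36 and 0.527 at 2 weeks and 0.239, 0.237 and 0.119 at 8 weeks. Across times the correlations were -0.497 to 0.237, with the OA arrays at 0.0352, 0.237 and 0.0489. The labels give no pairing, and the 8-week values are no higher than the highest across times. The check therefore does not establish the pairing within a time that the block assumes. The block within each time was chosen after this check of the data.

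Named were all listed genes, every related gene called in OA against sham (at most 4 per list and direction), and the 2 genes nearest to a listed gene called in any comparison. Others are said to be named after their values were seen. The genes and lists were chosen with earlier results of these data known. Alternatives were other filters, added normalizations, array weights, a variance trend, replicate blocks, marker means centred within each time as covariates, the 6 arrays compared alone, the mean of a gene's probe sets, and each array left out.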

Additional observations from a re-analysis of the deposited data

How the results depend on the processing

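No antioxidant gene was called between OA and sham at 2 weeks under any alternative tried. At 8 weeks the count went from 0 to 1 with array weights (Nqo1), with the replicate block within each time (Nqo1) and with the macrophage marker mean as a covariate (Hmox1). That covariate also gave 1 called gene for the average, for the difference between the times and for time in sham, and 2 for time in OA. Without the covariate, 0.364%, 0.138%, 18.7% and 34.1% of all probe sets were called in these comparisons. The shares with it are not given here, so these counts are not read as a result about the 9 genes. The 1 gene called for time in OA became 0 with added quantile normalization and with equal array medians, and 0 to 1 when single arrays were left out. Differences close to 0 changed sign. At 2 weeks these were Sod1 (-0.0065 with the muscle covariate), Sod3 (-0.0026 with quantile normalization, -0.0163 with the macrophage covariate) and Hmox1 (-0.4812 with array weights). At 8 weeks they were Sod1 (-0.1002) and Hmox1 (0.6691) with the muscle covariate, Cat (0.2853), Gpx1 (0.0433), Gpx3 (-0.1827) and Hmox1 (3.7653) with the macrophage covariate, and Txnip (-0.1888 with array weights, -0.3836 with the muscle covariate). With single arrays left out, the 2-week differences ranged from -0.0582 to 0.0475 for Sod1, -0.1005 to 0.1828 for Sod3, -1.0041 to 0.6308 for Hmox1 and -0.3125 to 0.1321 for Txnip. The 8-week ones ranged from -0.0223 to 0.1141 for Sod1, -0.1808 to 0.261 for Sod2, -0.2285 to 0.151 for Cat, -0.0565 to 0.1039 for Gpx3, -1.2722 to 0.6047 for Hmox1 and -0.2686 to 0.1944 for Txnip. Why these values moved was not tested. The count over all probe sets at 8 weeks was 552, from 27 with only the 6 arrays to 1567 with array weights. With the replicate number as 1 block over both times, the Nqo1 difference at 8 weeks had an adjusted p of 0.112. Blocks changed no other call of the 9 genes. The results tallied were those of the 9 genes, of the related genes called in OA against sham, and of the 11 related genes called between the times in both sham and OA. Not all of these 11 are named here. In the tally 1075 kept their direction and side of the threshold, among them results that stayed uncalled. Another 52 lost a call, 2 gained one with the same sign (both Nqo1), and 36 changed sign. Of those 36, 1 also gained a call (Hmox1 at 8 weeks with the macrophage covariate). Depth is not defined for arrays, and values under log2 4 give no exact size of a difference.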
